A study of Mus musculus with 8 samples.

Results

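The matrix metalloproteinases (MMPs), their tissue inhibitors (TIMPs), the ADAMTS proteinases and the ADAMTS-like proteins were taken as every gene of the count table whose symbol was Mmp, Timp, Adamts or Adamtsl followed by its family number. The table held 53801 genes, 51 of which matched, and 43 of these averaged 10 raw counts or more over the 8 libraries. These 43 genes were 16 MMPs, 3 TIMPs, 19 ADAMTS proteinases and 5 ADAMTS-like proteins.

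The RNA came from stromal cells of subcutaneous MO5 tumours, which grow from a B16 melanoma line carrying ovalbumin, collected at day 8 in ADAM12-GFP mice. These mice are C57Bl/6 animals that carry a bacterial artificial chromosome in which the Adam12 gene drives Cre and, through an internal ribosome entry site, GFP. They were 8 to 12 weeks old at implantation. Cells without CD45 and CD31 and with PDPN and PDGFRα were sorted into GFP+ and GFP- populations, with 4 libraries of each and the same replicate numbers, 1 to 4, in both. Tumour and sort gates were common to both groups, so the comparison asks what the Adam12 reporter state of a stromal cell goes with. The labels give the reporter state as the genotype and do not name the animal behind a library. The study counts n as mice unless otherwise stated and gives as many for this comparison as there are libraries in 1 group, so both populations may have been sorted from the same mice. Whether libraries with the same number share a mouse is not given in the sources used here, and p-values measure the spread between these samples.

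MMPs are zinc-dependent endopeptidases that cut collagens, proteoglycans and other matrix proteins, and most are secreted as inactive precursors. TIMPs occupy the active site of an MMP and block it, and TIMP3 also inhibits several ADAMTS enzymes. ADAMTS enzymes trim procollagens and cut proteoglycans such as versican, while ADAMTS-like proteins share the accessory domains but lack the catalytic one. Fibroblasts are known as a main source of MMP2, MMP3, MMP14 and several ADAMTS enzymes in connective tissue.

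Library totals ran from 883144 to 31666734 counts, with GFP- replicate 3 the shallowest, and values below are raw counts divided by the DESeq2 size factor of the library (normalised counts). Adam12, the gene behind the reporter, stood at 920 to 1693 normalised counts in the GFP- libraries and 1833 to 2938 in the GFP+ libraries, 1.69-fold higher in GFP+ (DESeq2 adjusted p = 0.0266, edgeR adjusted p = 0.0643), so GFP- libraries also held its RNA. Of the genes behind the sort gates, Pdgfra rose 2.5-fold and Pdpn 1.63-fold (DESeq2 adjusted p = 1.93e-12 and 0.0134), while Ptprc, which encodes CD45, and Pecam1, which encodes CD31, were read in every library at up to 1703 and 516 normalised counts. Melanocyte markers were present in both groups and higher in GFP-: all 12 were called lower in GFP+ by DESeq2 and 11 by edgeR, and their summed level ran from 26732 to 77481 normalised counts in GFP- and from 4559 to 12307 in GFP+. Of 8 fibroblast markers, 5 were called higher in GFP+ by DESeq2 and 4 by edgeR, and their sum, to which the collagen genes Col1a1, Col1a2 and Col3a1 gave most, ran from 249600 to 554961 in GFP- and from 655625 to 750041 in GFP+. Of those collagen genes only Col3a1 was called by DESeq2 (adjusted p = 0.0343, edgeR adjusted p = 0.0902). In bulk libraries, fewer cells of a type and less RNA per cell cannot be told apart. The tumours grew from a melanoma line, and whether the melanocyte marker reads came from tumour cells or from melanocytes was not tested.

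Of the 43 genes, 10 were higher in GFP+ and 3 lower at an adjusted p under 0.05 in DESeq2, and 30 were not called. Among all 15283 genes with an adjusted p, 4.66% were called higher and 4.76% lower, and among the 14721 of them that also averaged 10 raw counts or more the shares were 4.82% and 4.8%. By edgeR's quasi-likelihood test on genes kept by its expression filter, 9 of the 43 were higher and 1 was lower, where the background was 2.83% higher and 2.28% lower. With a count of 0 taken as 0, every GFP+ library lay above every GFP- library for 13 of the genes and below for 2, against 6.37% and 5.95% of all genes with an adjusted p. The median log2 difference was 0.37 over the 43 genes, 28 of them positive, and 0.001 over the 14721 genes.

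Every family held a higher gene. The MMPs contributed Mmp3, Mmp12 and Mmp19, the inhibitors Timp2 and Timp3, the ADAMTS proteinases Adamts1, Adamts2, Adamts5 and Adamts12, and the ADAMTS-like proteins Adamtsl1. The lower genes were Mmp9, Adamts18 and Adamts20. Abundance moved with these calls: among the 18 genes with a mean of at least 500 normalised counts, 9 were higher and 0 lower in DESeq2 (0 lower also at an unadjusted p under 0.05 and in edgeR), and the median was 0.56. Of all 3725 genes at that abundance, 433 were higher and 221 lower, with a median of 0.083. The 25 scarcer genes held 1 higher call and all 3 lower calls, and of the 10996 scarcer genes among the 14721, 276 were higher and 486 lower, with a median of -0.053.

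**Figure D1:**
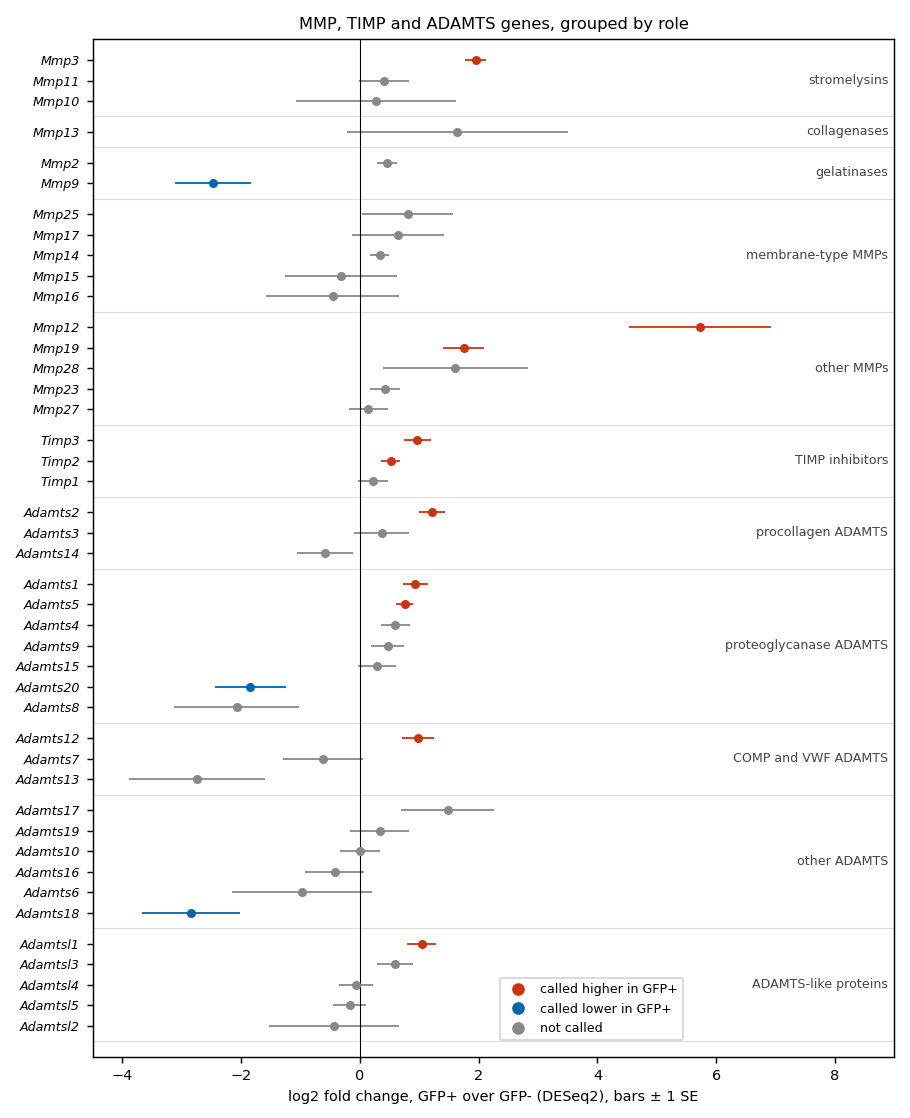
Log2 fold change of each of the 43 genes, GFP+ over GFP-, on the horizontal axis, with bars of 1 SE from DESeq2 (4 libraries a group); genes are grouped by role, red marks the 10 called higher, blue the 3 called lower and grey the 30 not called. Mmp12 has the largest value, 5.73, and one of the widest bars, whereas Mmp3 at 1.95 has a narrow one.

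Of the 10 MMP genes that lie side by side on chromosome 9, Mmp3 and Mmp12 were called. Mmp1a, Mmp1b, Mmp7, Mmp8 and Mmp20 were too scarce to be given an adjusted p, so they could not be called. An AP-1 site word stood in the promoter of Mmp3 and in 1 of the 2 promoters of Mmp12. It also stood in a promoter of the uncalled Mmp10 and Mmp13 and of Mmp1a, Mmp1b and Mmp7. The cluster runs over chr9:7272514-7699585 (GRCm38, GENCODE annotation) in the order Mmp13, Mmp12, Mmp1b, Mmp3, Mmp1a, Mmp10, Mmp8, Mmp27, Mmp20 and Mmp7. RefSeq promoter sequences on GRCm38.p6, from 250 bases before to 50 after each start, were matched for 36 of the 51 genes, and those of the called genes Mmp9, Mmp19, Adamts5 and Adamtsl1 were not among them. The 7-base word bound by AP-1, the Fos and Jun factors (TGAGTCA or TGACTCA, each the reverse complement of the other, so both strands were covered), stood in 7 of the 12 promoters of the 10 cluster genes, each of a different gene, and in 0 of 27 promoters of 26 genes elsewhere. It stood in 5.2% of all 32851 promoters in the table. A match describes letters, not a bound site.

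The bases from -100 to -16 before the start are shown for the called pair and for 2 neighbours that hold the word but were not called, on the + strand, with the word in capitals. Mmp3 is at chr9:7445722-7445806, Mmp12 (its second RefSeq start, since the promoter of the first did not hold the word) at chr9:7347274-7347358, Mmp10 at chr9:7502242-7502326 and Mmp13 at chr9:7272414-7272498.
Mmp3: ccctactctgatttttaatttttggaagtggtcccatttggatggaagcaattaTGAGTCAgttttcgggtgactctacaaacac
Mmp12: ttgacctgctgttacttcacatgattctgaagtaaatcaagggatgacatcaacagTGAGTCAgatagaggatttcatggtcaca
Mmp10: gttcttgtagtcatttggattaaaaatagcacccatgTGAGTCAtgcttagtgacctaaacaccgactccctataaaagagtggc
Mmp13: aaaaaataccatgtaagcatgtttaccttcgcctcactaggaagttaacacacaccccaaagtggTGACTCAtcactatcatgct

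Mmp3 (stromelysin-1, ENSMUSG00000043613, chr9:7445822-7455975), which cuts proteoglycans, fibronectin and other MMP precursors, had the strongest call of all 43 genes. Its normalised counts were 1909, 1746, 2329 and 1449 in GFP- replicates 1 to 4 and 6606, 7038, 7091 and 7615 in GFP+ replicates 1 to 4. The lowest GFP+ library was well above the highest GFP- library, and the GFP+ libraries were close to each other. This was a log2 difference of 1.95 ± 0.17 (SE), or 3.86-fold (DESeq2 adjusted p = 1.42e-26, edgeR adjusted p = 0.000134). Leaving out any one library kept the log2 difference between 1.85 and 2.05.

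The other stromelysins were not called, and no test compared them with Mmp3. Mmp10 (stromelysin-2), which carries the AP-1 word shown above, had 43 raw counts in the 4 GFP- libraries together and 72 in the GFP+ libraries, with a 95% interval of the log2 difference of -2.37 to 2.91. Mmp11 (stromelysin-3) averaged 133 and 177 normalised counts, with an interval of -0.43 to 1.24. The genes nearest the minimum of 10 were Mmp10 and Adamts13 just above it, with means of 14.4 and 16.9 raw counts, and Mmp24 and Mmp1a below it, with 4.25 and 2.25.

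Mmp12 (macrophage metalloelastase, ENSMUSG00000049723, chr9:7344381-7369499), an enzyme best known from macrophages that degrades elastin, was almost unread in GFP-. Raw counts were 0, 1, 0 and 8 in GFP- replicates 1 to 4 and 83, 20, 331 and 44 in GFP+ replicates 1 to 4, or 9 against 478 in total. As normalised counts these were 0, 0.717, 0 and 4.20 against 115, 8.37, 254 and 14.8. Replicates 1 and 3 held most of the GFP+ signal. The GFP+ values lay above those of the 3 deeper GFP- libraries, but in the shallow GFP- replicate 3 a count of 0 allows up to 33.0 normalised counts, more than GFP+ replicates 2 and 4 had, so that library cannot be placed. The fitted log2 difference was 5.73 ± 1.20 (DESeq2 adjusted p = 8.54e-05, edgeR adjusted p = 0.0273). The size rested on single libraries, at 4.65 without GFP+ replicate 3 and 7.10 without GFP- replicate 4, and the call was lost in limma voom on the filtered genes (adjusted p = 0.311).

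No macrophage marker was called. Of 10 macrophage and monocyte markers, 0 passed by DESeq2 or by edgeR and 0 had an unadjusted p under 0.05 in DESeq2, and their summed level was 1703, 1218, 5175 and 1928 normalised counts in GFP- replicates 1 to 4 and 1465, 3994, 1057 and 1872 in GFP+ replicates 1 to 4. GFP+ replicate 3, the library with the most Mmp12, had the lowest macrophage sum of all 8. The part of macrophage RNA in the Mmp12 difference was not tested. Mmp12 overlaps Mmp1b, which lies on the opposite strand and had 6 raw counts in GFP- and 0 in GFP+, the latter below a floor of 3 counts.

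Mmp13, the only collagenase that averaged 10 raw counts or more, rested on 1 library. Its raw counts were 3, 10, 1 and 0 in GFP- replicates 1 to 4 and 0, 16, 0 and 160 in GFP+ replicates 1 to 4, and it was not called (DESeq2 adjusted p = 0.689). Mmp27, of unsettled function, averaged 70.8 and 79.5 normalised counts and was not called. The cluster genes Mmp1a, Mmp1b, Mmp7, Mmp8 and Mmp20 had means from 0.125 to 2.25 raw counts and were left out, as was Mmp21, outside the cluster, with 0.375.

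**Figure D2:**
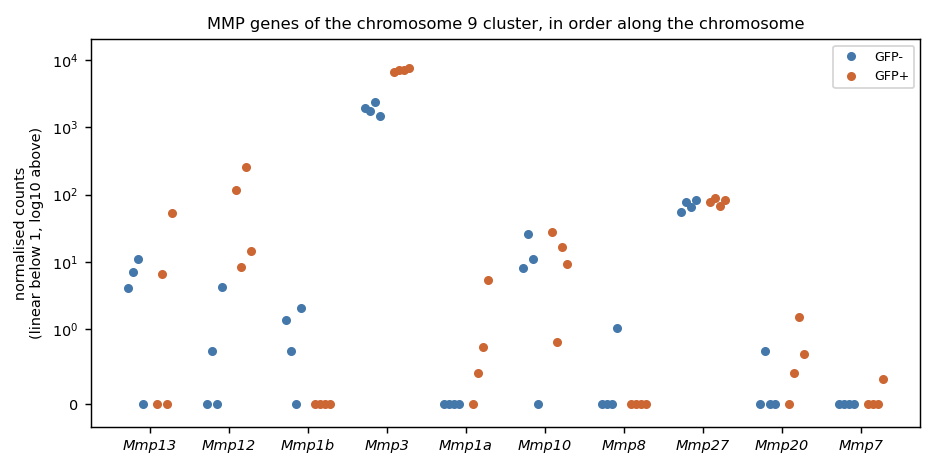
Normalised counts (vertical axis, linear below 1 and log10 above) of the 10 MMP genes of the chromosome 9 cluster in each of 4 GFP- (blue) and 4 GFP+ (orange) libraries, in chromosome order. Mmp3 is the only gene above 1000 in any library and Mmp12 the only other one with all GFP+ libraries above 5 and all GFP- values below them, of which the 0 in the shallow GFP- replicate 3 allows up to 33.0.

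Mmp19 (ENSMUSG00000025355, chr10:128790910-128800824), an MMP that cuts basement membrane proteins, rose as well. Its normalised counts were 601, 701, 1286 and 418 in GFP- replicates 1 to 4 and 3252, 2055, 2982 and 1597 in GFP+ replicates 1 to 4. The groups did not overlap, though GFP- replicate 3 came near GFP+ replicate 4. GFP+ was higher by a log2 difference of 1.75 ± 0.34, or 3.36-fold (DESeq2 adjusted p = 1.75e-05, edgeR adjusted p = 0.00593). Among the remaining MMPs, Mmp23 averaged 380 and 506 normalised counts and Mmp28 had 165 of its 219 GFP+ raw counts in replicate 4, and neither was called.

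The gelatinases, which digest denatured collagen and basement membrane collagen, had opposite signs. Mmp2 (gelatinase A) had 10660.2 ± 1927 normalised counts in GFP- and 14667 ± 1199.5 in GFP+ (SD, n = 4 each), with ranges of 8416 to 12696 and 13074 to 15911 that did not overlap. Its log2 difference of 0.46 had a 95% interval of 0.13 to 0.79, and the adjusted p was 0.0645 in DESeq2 and 0.127 in edgeR. Limiting the DESeq2 fit to genes that averaged 10 raw counts or more gave an adjusted p of 0.0386, and leaving out GFP- replicate 1 gave 0.0264, so the call depended on the genes and libraries tested.

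Mmp9 (gelatinase B, ENSMUSG00000017737, chr2:164940780-164955850), typical of neutrophils, macrophages and many tumour cells, fell in GFP+. Its normalised counts were 309, 361, 253 and 136 in GFP- replicates 1 to 4 and 128, 12.1, 18.4 and 36.9 in GFP+ replicates 1 to 4. The groups were separated only narrowly, because GFP+ replicate 1 lay just under GFP- replicate 4. On the log2 scale the difference was -2.47 ± 0.64, a 5.52-fold fall (DESeq2 adjusted p = 0.00284, edgeR adjusted p = 0.0476), and it was -3.53 without GFP+ replicate 1.

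The membrane-type MMPs, which act at the cell surface, gave 0 calls by DESeq2 and by edgeR, and 1 of the 5 had an unadjusted p under 0.05 in DESeq2. That was Mmp14 (MT1-MMP), which activates the MMP2 precursor. It ran from 6790.1 to 9670.3 normalised counts in GFP- and from 10094 to 11200.0 in GFP+. These ranges did not overlap, and the log2 difference of 0.33 (95% interval 0.02 to 0.65) had a DESeq2 adjusted p of 0.208. Mmp15, Mmp16, Mmp17 and Mmp25 were scarce, with means under 50 normalised counts, overlapping groups and no call.

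Of the 3 inhibitors with enough counts, Timp2 and Timp3 were called higher by DESeq2, and only Timp3 by edgeR on the filtered genes as well. Without the expression filter, edgeR also called Timp2 (adjusted p = 0.025). Timp3 (ENSMUSG00000020044, chr10:86300372-86349506), which binds to the matrix, had 9549.6, 8906, 8592 and 6333 normalised counts in GFP- replicates 1 to 4 and 19348, 15162, 20108 and 10617 in GFP+ replicates 1 to 4. The groups did not overlap, and the log2 difference was 0.97 ± 0.23, or 1.95-fold (DESeq2 adjusted p = 9.58e-04, edgeR adjusted p = 0.0175). Timp3 lies within Syn3 on the opposite strand.

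Timp2 (ENSMUSG00000017466, chr11:118301069-118355740), which also takes part in MMP2 activation by MMP14, had 13989, 13042, 14108 and 13803 normalised counts in GFP- replicates 1 to 4 and 23454, 18629.6, 21307 and 15424 in GFP+ replicates 1 to 4. GFP- libraries were nearly equal and every GFP+ library was above them. Their log2 difference was 0.52 ± 0.16, or 1.43-fold (DESeq2 adjusted p = 0.018, edgeR adjusted p = 0.0635). The DESeq2 adjusted p was 0.0535, 0.0847 and 0.0502 without GFP- replicate 1, 2 or 4, and 0.061 and 0.1 without GFP+ replicate 1 or 3, which ended the call each time. Timp2 overlaps Cep295nl on the same strand, and any effect of this overlap on the count was not tested.

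Timp1 was not called. Its means were 485 ± 117 normalised counts in GFP- and 558 ± 88.2 in GFP+, with overlapping groups and a log2 difference of 0.22 (95% interval -0.27 to 0.71, DESeq2 adjusted p = 0.688). Timp4 had 0 counts in all 8 libraries, which allows up to 3 counts, or 1.01 to 33.0 normalised counts a library.

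Per kilobase of exon, a scale on which genes can be compared, the summed levels of all families were higher in GFP+, with no overlap of the groups. Summed over each family, MMPs came to 6169 ± 974 normalised counts per kilobase in GFP- and 11154 ± 574 in GFP+, TIMPs 5097 ± 316 and 7688 ± 1383, and ADAMTS proteinases 4215 ± 694 and 7572 ± 1423 (SD, n = 4 each). The TIMP sum over the MMP sum was 0.838 ± 0.102 in GFP- and 0.687 ± 0.102 in GFP+, and these ranges overlapped. The ADAMTS-like sum was 521 ± 42.5 and 769 ± 123. Such sums follow the most abundant genes and do not describe each member. Among the 43 genes, log2 differences were negative for 3 of 16 MMPs, 0 of 3 TIMPs, 9 of 19 ADAMTS proteinases and 3 of 5 ADAMTS-like genes. The ADAMTS-like median was -0.06.

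The share of Mmp3, the gene with the strongest call, in the MMP sum did not overlap between groups. Mmp3 was picked for its call in these same counts, so this share restates its rise and is no separate result. Mmp3 made up 15.2%, 14.5%, 20.8% and 16.8% of it in GFP- replicates 1 to 4 and 31.4%, 37.6%, 34.1% and 38.4% in GFP+ replicates 1 to 4. Mmp2 and Mmp14 together went from 74.2% ± 4.51 to 55.0% ± 1.16 as a share, but their levels did not fall. Per kilobase, Mmp2 averaged 3162 in GFP- and 4351 in GFP+, and Mmp14 1419 and 1788, though neither was called. Mmp3 per kilobase was 0.332 ± 0.0786 of Mmp2 in GFP- and 0.910 ± 0.105 in GFP+, with no overlap.

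In GFP+, the highest level per kilobase was that of Timp2 (5057), followed by Mmp2 (4351), Adamts1 (4052) and Mmp3 (3935), and each overlapped the next over the libraries. In GFP-, Timp2 (3525) and Mmp2 (3162) led, then Adamts1 (2123) and Mmp14 (1419), with Mmp3 (1032) and Timp3 (1025) behind. There Adamts1 overlapped neither Mmp2 above it nor Mmp14 below it, while the other neighbours in that order overlapped. Mmp9, at 74.8 and 13.8 per kilobase, was far below Mmp2 in both groups.

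**Figure D3:**
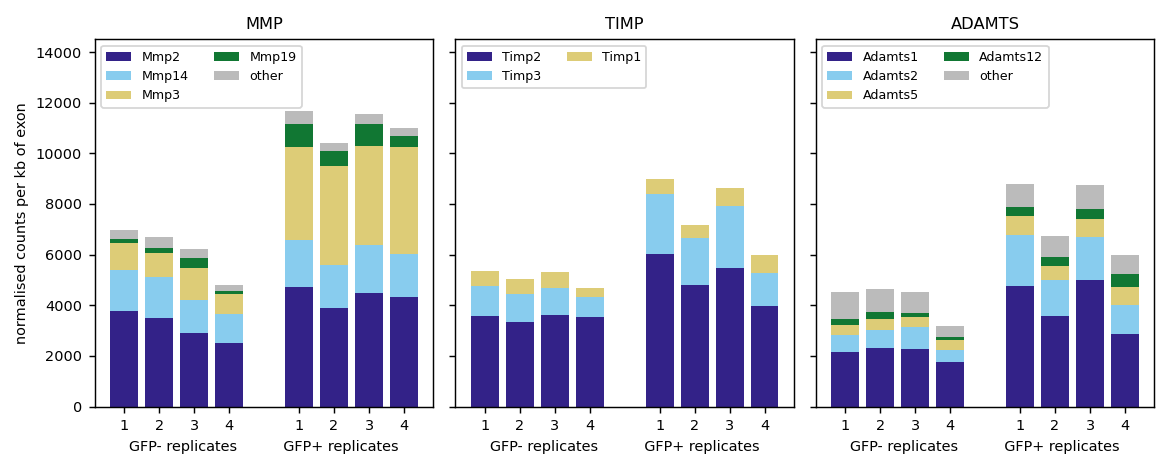
Normalised counts per kilobase of exon (vertical axis, stacked by gene) of the MMP, TIMP and ADAMTS genes in each library, GFP- replicates on the left and GFP+ replicates on the right of each panel. The MMP bars end between 4787 and 6972 in GFP- and between 10403 and 11664 in GFP+, and the Mmp3 segment widens from 16.8% to 35.4% of the bar on average.

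Among the ADAMTS procollagen N-proteinases, which remove the amino-terminal propeptide so that fibrillar collagen can assemble, Adamts2 rose. Adamts2 (ENSMUSG00000036545, chr11:50602084-50807573) had 6102, 6804, 7856 and 4666 normalised counts in GFP- replicates 1 to 4 and 18968, 13161, 15784 and 10969 in GFP+ replicates 1 to 4. Every GFP+ library was above every GFP- library. This came to a log2 difference of 1.21 ± 0.22, or 2.32-fold (DESeq2 adjusted p = 4.45e-06, edgeR adjusted p = 0.00385).

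Its paralogs were not called, and no test compared them with Adamts2. Adamts14 had means of 967 ± 638 and 648 ± 264 normalised counts in GFP- and GFP+ (log2 difference -0.58, 95% interval -1.50 to 0.33), and Adamts3 averaged 96.0 and 117 (log2 difference 0.37, 95% interval -0.54 to 1.28). Both had overlapping groups.

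Of the 7 proteoglycanases, which cut versican, aggrecan and related proteoglycans, 2 rose and 1 fell. Adamts1 (ENSMUSG00000022893, chr16:85793827-85803113), the most abundant ADAMTS gene, had 11465, 12207, 12097 and 9254 normalised counts in GFP- replicates 1 to 4 and 25230.4, 19012, 26566 and 15129.9 in GFP+ replicates 1 to 4. The groups did not overlap, and the log2 difference was 0.93 ± 0.21, or 1.91-fold (DESeq2 adjusted p = 3.26e-04, edgeR adjusted p = 0.0128).

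Adamts5 (ENSMUSG00000022894, chr16:85856173-85901828), a main aggrecanase, lies close to Adamts1 on the same strand. It had 4203, 4538, 4329 and 4043 normalised counts in GFP- replicates 1 to 4 and 7818, 5872, 7489 and 7664 in GFP+ replicates 1 to 4. GFP- libraries were tight, and the GFP+ libraries lay above them with replicate 2 the lowest. The log2 difference was 0.75 ± 0.14, or 1.69-fold (DESeq2 adjusted p = 9.86e-06, edgeR adjusted p = 0.00751).

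Adamts4, the other main aggrecanase, ran from 584 to 1099 normalised counts in GFP- and from 1163 to 1684 in GFP+, with no overlap. Its log2 difference was 0.60 (95% interval 0.13 to 1.07) and its DESeq2 adjusted p was 0.0993. Adamts9 averaged 942 ± 391 and 1275 ± 197 normalised counts and was not called (log2 difference 0.47, DESeq2 adjusted p = 0.337), but without GFP- replicate 3, its highest GFP- library at 1494, the log2 difference was 0.75 with an adjusted p of 0.00902. Adamts15 averaged 1780.4 ± 774 and 2170.3 ± 312 with overlapping groups (log2 difference 0.28, DESeq2 adjusted p = 0.69). Adamts8 was scarce and not called.

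Adamts20 (ENSMUSG00000022449, chr15:94270163-94465418), a versicanase whose loss gives the white belt of the belted mouse through melanoblasts, fell. Its normalised counts were 129, 98.9, 109.9 and 87.7 in GFP- replicates 1 to 4 and 31.9, 49.8, 4.61 and 31.2 in GFP+ replicates 1 to 4. No GFP+ library reached the lowest GFP- library. The log2 difference was -1.84 ± 0.59, a 3.59-fold fall (DESeq2 adjusted p = 0.0255, edgeR adjusted p = 0.151). The call ended without GFP- replicate 1, 2 or 4 or GFP+ replicate 4, at DESeq2 adjusted p-values of 0.0883, 0.0838, 0.075 and 0.0684.

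Adamts12 (ENSMUSG00000047497, chr15:11064790-11349231), which cuts cartilage oligomeric matrix protein (COMP), rose. It had 2734, 3256, 1912 and 1252 normalised counts in GFP- replicates 1 to 4 and 4084, 4191, 4471 and 5352 in GFP+ replicates 1 to 4. The groups did not overlap, and the log2 difference was 0.98 ± 0.28, or 1.97-fold (DESeq2 adjusted p = 0.00752, edgeR adjusted p = 0.0398). Adamts7, which acts on the same substrate, averaged 113 and 71.9 normalised counts and was not called, and Adamts13, which cuts von Willebrand factor, had 98 of its 114 GFP- raw counts in replicate 4 and was not called.

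Adamts18 (ENSMUSG00000053399, chr8:113697126-113848738), whose substrates are little known, was called lower, but not without 1 of the libraries. Its normalised counts were 305, 61.6, 22.0 and 86.1 in GFP- replicates 1 to 4 and 1.39, 10.04, 26.1 and 28.9 in GFP+ replicates 1 to 4. GFP- replicate 1 lay far above all others, and GFP- replicates 2 and 4 lay above the GFP+ range. The value of GFP- replicate 3 was 2 raw counts, too few at its depth to be placed within or above that range. The log2 difference was -2.85 ± 0.83 (DESeq2 adjusted p = 0.0106, edgeR adjusted p = 0.096), and without GFP- replicate 1 it was -1.83 with an adjusted p of 0.204. Adamts19 averaged 542 ± 345 and 682 ± 251 (log2 difference 0.33, DESeq2 adjusted p = 0.787), and Adamts6, Adamts10, Adamts16 and Adamts17 were scarcer and not called.

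Among the ADAMTS-like proteins, Adamtsl1 (punctin-1, ENSMUSG00000066113, chr4:85514172-86428385), a secreted matrix protein, rose. It had 2298, 2409, 4472 and 2357 normalised counts in GFP- replicates 1 to 4 and 6516, 5607, 6632 and 4806 in GFP+ replicates 1 to 4. GFP- replicate 3 stood above its group and just below GFP+ replicate 4, so the groups did not overlap. The log2 difference was 1.04 ± 0.24, or 2.06-fold (DESeq2 adjusted p = 6.85e-04, edgeR adjusted p = 0.0139). Adamtsl1 overlaps Gm26069 and Sh3gl2 on the same strand, and any effect of these overlaps on the count was not tested. Adamtsl4, which binds fibrillin microfibrils, averaged 835 ± 219 and 812 ± 258 (log2 difference -0.06, 95% interval -0.61 to 0.49), and Adamtsl2, Adamtsl3 and Adamtsl5 were not called.

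**Figure D4:**
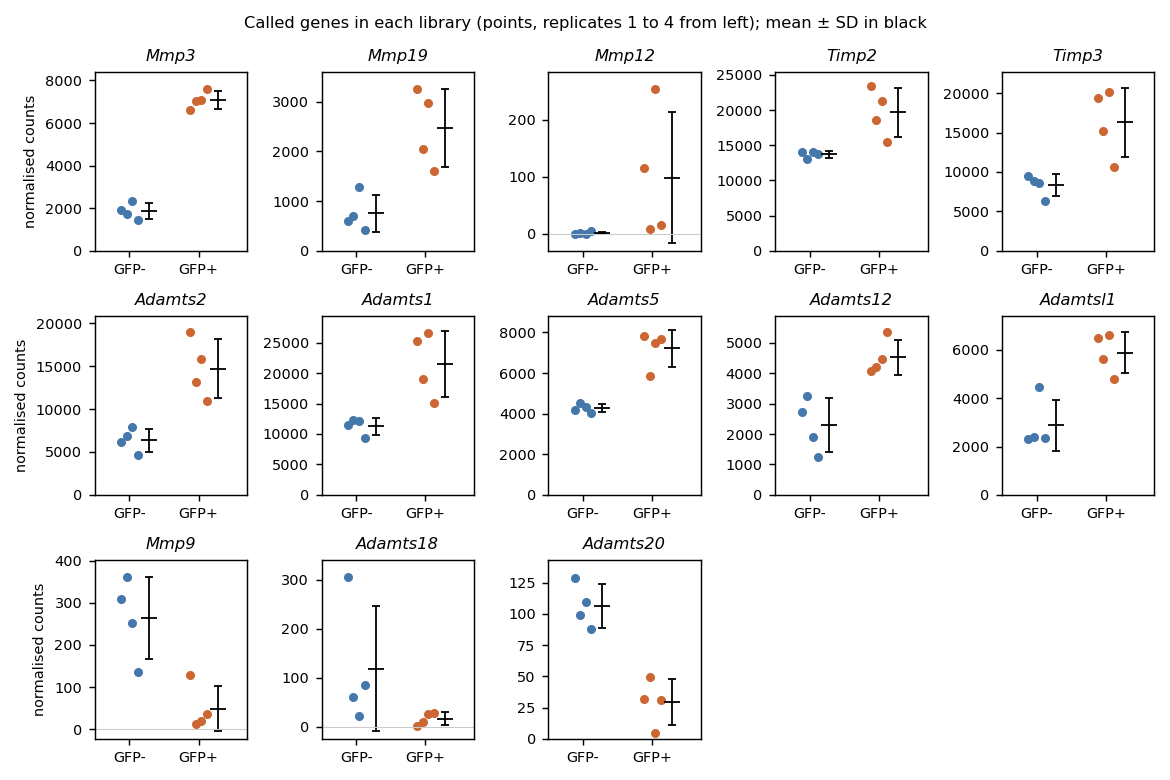
Normalised counts (vertical axes, each with its own scale) of the 13 called genes in each library, GFP- in blue and GFP+ in orange with replicates 1 to 4 from left to right, and the mean ± SD in black. In 12 panels the plotted values of the groups do not overlap, and in the Adamts18 panel GFP- replicate 3 is plotted at 22.0, which is 2 raw counts.

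The libraries differed within groups in a way that several of the 10 higher genes shared. GFP- replicate 4 was the lowest GFP- library for 7 of the 10 and GFP- replicate 3 the highest for 5, while GFP+ replicate 4 was the lowest GFP+ library for 6. GFP- replicate 4 also had the highest melanocyte sum, 77481 normalised counts, and the lowest fibroblast sum, 249600, and GFP- replicate 3 had the lowest melanocyte sum of its group, 26732, but a fibroblast sum of 433867, below the 554961 and 541968 of replicates 1 and 2. GFP+ replicate 4 had the highest melanocyte sum of GFP+, 12307, and the lowest fibroblast sum, 655625, close to the 656271 of GFP+ replicate 2. The part of melanocyte or fibroblast RNA in the levels of these genes was not tested.

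For the 3 lower genes the melanocyte markers moved in the same direction. Melanocyte markers were summed to 53586, 48768, 26732 and 77481 normalised counts in GFP- replicates 1 to 4 and 4559, 7876, 4692 and 12307 in GFP+ replicates 1 to 4. Within GFP-, replicate 4, with the highest melanocyte sum, had the lowest Mmp9 and Adamts20, while for Adamts18 it had the second highest value and replicate 3, with the lowest melanocyte sum, the lowest value. Schwann cell markers also fell, 4 of 8 by DESeq2 and 2 of 8 by edgeR, with sums of 802 to 2308 in GFP- and 246 to 592 in GFP+. The part of either cell type in the fall of Mmp9, Adamts18 and Adamts20 was not tested.

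Neutrophil markers, relevant to Mmp9, were scarce in most libraries. Of 10 markers, 0 were called by DESeq2 or edgeR and 0 had an unadjusted p under 0.05 in DESeq2, and only Csf3r had an adjusted p. The summed level of the list was 6.78, 27.2, 54.9 and 9.98 normalised counts in GFP- replicates 1 to 4 and 13.9, 24.7, 18.4 and 160.4 in GFP+ replicates 1 to 4. The sum was highest in GFP+ replicate 4, above that library's Mmp9 of 36.9. Csf3r, the receptor for granulocyte colony-stimulating factor, had 5.43, 19.3 and 8.93 normalised counts in GFP- replicates 1, 2 and 4. In the shallow GFP- replicate 3 its 33.0 stood at the floor of 3 counts, and the other markers lay below that floor. These markers could therefore not be read in that library. The Csf3r values of GFP+ replicates 1 to 4 were 0, 18.4, 12.3 and 32.2 (DESeq2 adjusted p = 0.98). Of the 10 markers, 5, S100a8 among them, had no count in any GFP- library, though a 0 in replicate 3 allows up to 33.0 normalised counts. The part of neutrophil RNA in the Mmp9 difference was not tested.

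**Figure D5:**
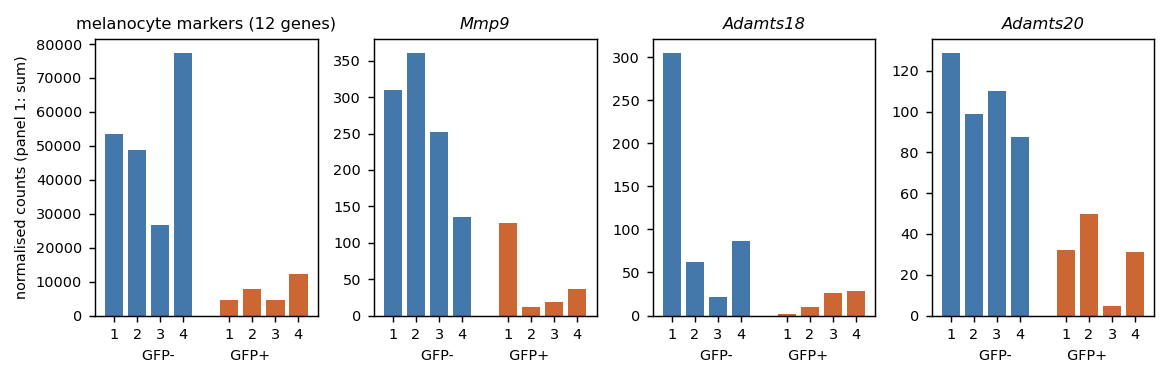
Normalised counts by library of the summed 12 melanocyte markers (first panel) and of Mmp9, Adamts18 and Adamts20, with GFP- replicates in blue and GFP+ replicates in orange. The melanocyte sum is highest in GFP- replicate 4 (77481), where Mmp9 (136) and Adamts20 (87.7) are at their lowest of the GFP- libraries and Adamts18 (86.1) is not.

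Genes that act with these enzymes were called higher in part as well. As a background for the lists that follow, DESeq2 called 4.66% of all 15283 genes with an adjusted p higher and 4.76% lower. For edgeR the shares were 2.83% and 2.28%. Most genes named below were abundant. Of all 3725 genes with a mean of at least 500 normalised counts, 433 were higher and 221 lower by DESeq2, with a median log2 difference of 0.083. Of 16 genes for activation and clearance of metalloproteinases, 4 were higher and 0 lower by DESeq2 and by edgeR (2 lower at an unadjusted p under 0.05 in DESeq2), with a median log2 difference of 0.37. Lrp1, the endocytic receptor that clears MMP and ADAMTS complexes, went from 31327 ± 4174 to 56846 ± 9521 normalised counts (DESeq2 adjusted p = 5.04e-05), and Pcsk5, a proprotein convertase, from 1349 ± 294 to 2593 ± 619.6 (DESeq2 adjusted p = 0.00111). Sdc4, a cell surface heparan sulphate proteoglycan, rose 1.88-fold (DESeq2 adjusted p = 0.00155).

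Of 16 other matrix proteases, 5 were higher and 0 lower by DESeq2 (4 and 0 by edgeR, and 0 lower at an unadjusted p under 0.05 in DESeq2), with a median of 0.40. Fap, a serine protease of activated fibroblasts, rose 2.31-fold (DESeq2 adjusted p = 5.91e-10), Htra1 1.77-fold (2.52e-11), the cathepsin Ctsl 1.69-fold (7.9e-08) and the cathepsin Ctsb 1.6-fold (0.0012), all by DESeq2. Fap is also 1 of the fibroblast markers.

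Of 20 substrates and cofactors of the ADAMTS enzymes, 8 were higher and 2 lower by DESeq2 (5 and 1 by edgeR), with a median of 0.48. Pcolce, the enhancer of procollagen C-proteinase, rose 2.18-fold (DESeq2 adjusted p = 1.02e-10), and its relative Pcolce2 1.45-fold (DESeq2 adjusted p = 0.0165, edgeR adjusted p = 0.0566). Vcan, which encodes versican, rose 1.67-fold in DESeq2 (adjusted p = 0.0201, edgeR adjusted p = 0.0577). Dcn and Bgn, small leucine-rich proteoglycans, rose 2.04-fold and 2.35-fold (Dcn is also a fibroblast marker), and Thbs1 and Thbs2, matricellular thrombospondins, 2.12-fold and 2.41-fold. The lower genes were Hapln1, the link protein of hyaluronan and proteoglycans, at 61.9 against 14.3 normalised counts (edgeR adjusted p = 0.173), and Vwf, the substrate of ADAMTS13 and also an endothelial marker, at 121 against 11.8 (edgeR adjusted p = 0.0266).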

How the data were processed

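RNA-seq libraries of sorted mouse tumour stromal cells, 4 GFP+ and 4 GFP-, were prepared with the SMARTer stranded total RNA kit for small inputs. Per the labels' processing notes, the authors trimmed reads with cutadapt 3.4, mapped them with STAR 2.7.3a to GRCm38 and counted them per gene with featureCounts 2.0.1. Per the study's methods the counting used the strand, and reads shared by near-identical genes may be lost or split. The deposited table holds the raw count per gene and library and the authors' normalised score, which is the raw count over the size factor, rounded (100% within 0.5 of the values computed here). Its own fold changes and p-values were not used. Per-sample columns left unmapped were 0.

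All 29043 genes with a count were fitted in R 4.3.3 with DESeq2 1.42.0 (group as the only term, default Wald test, two-sided, Benjamini-Hochberg adjustment over all genes). An adjusted p was missing for 13443 genes by independent filtering and for 317 by Cook's distance. Calls needed an adjusted p under 0.05. edgeR 4.0.16 (quasi-likelihood, 14323 genes kept by filterByExpr) and limma 3.58.1 (voom) served as alternatives. Unless stated otherwise, edgeR p-values in the text come from the filtered fit, which was chosen after seeing the data. Fits were tested on simulated data. Gene positions and exon lengths came from GENCODE M21 on GRCm38, where 53706 of 53801 identifiers (99.82%) matched, and promoters from RefSeq.

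The members and gene lists were chosen with earlier results of these data known. Every called member was named with each library's value, uncalled members were given values at a mean of at least 500 normalised counts, and related genes were named where called at that abundance. Hapln1, Vwf, Ptprc, Pecam1, Csf3r, S100a8, the collagen genes and the scarce uncalled members were named after their values were seen.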

Additional observations from a re-analysis of the deposited data

Results flagged for a closer look

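In 44 groups of 4 libraries (22 genes with values, each in GFP- and GFP+), 4 had a library whose distance from its nearest neighbour exceeded Dixon's 95% critical value for 4 as a share of the group's range, where chance gives about 1 in 20 groups. Adamts5 stood at 5872 normalised counts in GFP+ replicate 2, against 7489 to 7818 in the other GFP+ libraries. Adamtsl1 stood at 4472 in GFP- replicate 3, against 2298 to 2409 in the rest of GFP-. Timp1 stood at 310.4 in GFP- replicate 4, where the other GFP- libraries ran from 532 to 560.4. Mmp12 stood at 4.20 in GFP- replicate 4, against 0 to 0.717, which is 8 raw counts against 0 or 1. The 0 of the shallow GFP- replicate 3 allows up to 33.0 normalised counts, so this flag cannot place 4.20 above that library.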

How the results depend on the processing

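Over 17 alternatives, 7 of the 13 called genes kept their call in every fit that gave them an adjusted p, and 6 lost it in at least 1. Adamts1 and Timp3 lost it only under limma voom without a filter. Of the 9 uncalled genes with values, 4 (Mmp2, Mmp14, Adamts4 and Adamts9) were called in at least 1 alternative. Without GFP+ replicate 1, Mmp12 had no adjusted p. The number of these genes called lower fell from 3 to 1 in edgeR with filterByExpr and in limma voom with and without a filter, and calls over all genes fell from 1439 to 732 in edgeR with filterByExpr and to 938 in limma voom without a filter. Leaving out 1 library at a time gave 8 to 11 of these genes higher (8 without GFP+ replicate 1) and 2 to 4 lower, and 969 to 1837 calls over all genes (969 without GFP- replicate 4, 980 without GFP+ replicate 3, 1837 without GFP- replicate 3). The log2 difference of Adamtsl4 then ran from -0.27 to 0.10, above zero at 0.04 and 0.02 when GFP- replicate 1 or 4 was left out and at 0.10 when GFP+ replicate 2 was, and that of Adamts19 from -0.02 (without GFP- replicate 4) to 0.77, all uncalled. Beyond the fewer genes tested or samples left, the cause of these changes was not tested.

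Same-numbered libraries did not deviate together (correlations of 0.05, -0.158, -0.122 and 0.262), so the numbers were not taken to pair the samples, though both populations may come from the same mice. A replicate block in DESeq2 gave 12 of these genes higher, 2 lower and 1492 calls in all, adding Mmp2 (adjusted p = 0.0311) and Adamts4 (0.044) and losing Adamts18 (0.0595). Of the GFP- libraries, only replicate 4 correlated best with its own number. The depth of GFP- replicate 3, 883144 counts, makes 3 counts there worth 33.0 normalised counts, so scarce genes could not be read in it.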
